A study of Ictalurus punctatus x Ictalurus furcatus and Ictalurus furcatus and Ictalurus punctatus with 8 samples.

Results

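The NLR-like genes are genes in catfish liver RNA whose names place them in or near the nucleotide-binding, leucine-rich repeat receptor family. Relatives with other names were not taken, so sums over the family below cover these genes only. They were chosen by name from the deposited gene table. A gene was taken when its description contained NACHT, NLRC, NLRP or NLR family, or when its symbol began with nlr or nod followed by a digit or by c, p or x. The description gave 21 members and the symbol added nod1 and nod2, which made 23 genes of the 13444 in the table. The rule itself used no expression value, but it was set with earlier results of these data known. By name, 10 were NLRP-like (NLRP12-like, NLRP3-like, NLRP4E-like or NLRP9-like, for proteins with NACHT, LRR and PYD domains), 7 were nlrc3 or NLRC3-like, 2 were nlrx1 and an NLRX1-like gene, and the others were nod1, nod2, nlrc5 and a NACHT domain- and WD repeat-containing protein 1-like gene (NWD1-like below). The last has the NACHT domain of the family in its name but not the leucine-rich repeats. The table gives no symbol for 14 of the 23, which are named here by their Ensembl identifiers. Chromosome positions and sequences of these genes were not used here.

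NLR proteins are sensors inside the cell. A central NACHT domain binds nucleotides and lets the proteins assemble, leucine-rich repeats serve in recognition or restraint, and an amino-terminal domain such as CARD or PYD recruits partners. In mammals NOD1 and NOD2 respond to fragments of bacterial cell wall and signal through RIPK2 to NF-kB, NLRP3 forms an inflammasome that activates caspase-1, NLRC5 drives MHC class I genes, NLRX1 is a mitochondrial member, and NLRC3 dampens innate signalling. Fishes have large additional groups of NLRC3-like and NLRP-like genes, so a mammalian name with "-like" marks similarity of sequence and not the same gene.

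Livers of 8 fish were measured, 2 from each of 4 genetic types, all at 12 months of age. The types were channel catfish (PC, Ictalurus punctatus), blue catfish (PB, Ictalurus furcatus) and their reciprocal F1 hybrids, F1BC from a blue catfish female and a channel catfish male and F1CB from a channel catfish female and a blue catfish male. No fish was treated, and each type was kept apart in a tank of its own, so a difference of type and one of tank cannot be told apart. Reads of all types, blue catfish included, were mapped to the channel catfish genome, so a gene that only blue catfish carries could not be seen, and the part that mapping differences had in any result below was not tested. The sources used here do not give how reads that match several members of the family were counted, so each member's value is uncertain to the extent that its copies are alike.

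The values are treated as CPM, read counts scaled to the library total without division by transcript length, and every library summed to between 996838 and 998652. Hepatocyte markers were present in all livers, with 15 of the list in the table, none of them under 0.25 CPM in any liver, and summed levels from 143681 to 227881 CPM. A list of 22 white blood cell markers, cells that could also hold NLR RNA, summed to 921 and 1467 CPM in PC, 862 and 1735 in PB, 845 and 1280 in F1BC, and 504 and 358 in F1CB. In bulk tissue, fewer cells of a type and less RNA per cell cannot be told apart. All 23 members passed the filter on low values, a type mean over 1 CPM, 20 of them in all 4 types and 3 in 2 types.

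Expression was low in many members. In 11 of the 23 the highest of the 8 livers was under 10 CPM, and in 17 all 8 livers were over 1 CPM. Levels of different genes are compared per kilobase of transcript. Averaged over the types, ENSIPUG00000012956, an NLRP12-like gene with a transcript of 6840 bases, stood first at 56.1 CPM per kilobase. The NLRP12-like gene ENSIPUG00000001161 followed at 9.82, nlrx1 at 4.19, the NLRP12-like gene ENSIPUG00000011503 at 4.02 and the NLRP4E-like gene ENSIPUG00000017310 at 3.35 CPM per kilobase. This order rests on averages over types that differ. ENSIPUG00000012956 was first in PC (186.9 CPM per kilobase), F1BC (9.60) and F1CB (27.5), but in PB it had 0.27 CPM per kilobase and ENSIPUG00000001161 led with 6.93. Likewise nlrx1 had 11.6 CPM per kilobase in PC and 1.15 in F1CB. The NLRP9-like gene ENSIPUG00000003616 had the lowest average, 0.29 CPM per kilobase, but was the lowest member in no single type, where ENSIPUG00000020305 (0.38 in PC), the NWD1-like gene ENSIPUG00000019081 (0.021 in PB) and nod2 (0.080 in F1BC and 0.062 in F1CB) lay lower.

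Summed over the family, the livers held 2256 and 1027 CPM in the PC type, 139.7 and 159 CPM in PB, 220.01 and 142 CPM in F1BC, and 438 and 195 CPM in F1CB. Both PC livers lay above the 6 other livers. A single gene, ENSIPUG00000012956, made up 77.5% and 78.7% of the family's sum in PC, 1.66% and 0.826% in PB, 38.0% and 33.5% in F1BC, and 72.7% and 29.9% in F1CB. Without it the other 22 members summed to 507 and 219 CPM in PC and to between 94.6 and 158 CPM in the other 6 livers, so PC was still the highest type.

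The comparison of PC with PB asks how the parental species differ. Differences were tested with limma on log2(CPM + 0.5), in a fit of all 8 livers over 13420 genes with Benjamini-Hochberg adjustment over all of them. A gene passed the test when its adjusted p was under 0.05 and its absolute log2 fold change over 1.5. Of the 23 members, 7 passed, all of them higher in PC, against 9.12% of all genes tested that passed in this direction and 15.8% in either. No member was higher in PB by the same rule, which 6.69% of all genes were. The median log2 fold change of the members was 1.14, beside 0.02 over all genes, and 17 members lay above 0 and 6 below. Both PC livers were above both PB livers in 12 members (29.5% of all genes) and below them in 1 member (26.3% of all genes).

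**Figure D1:**
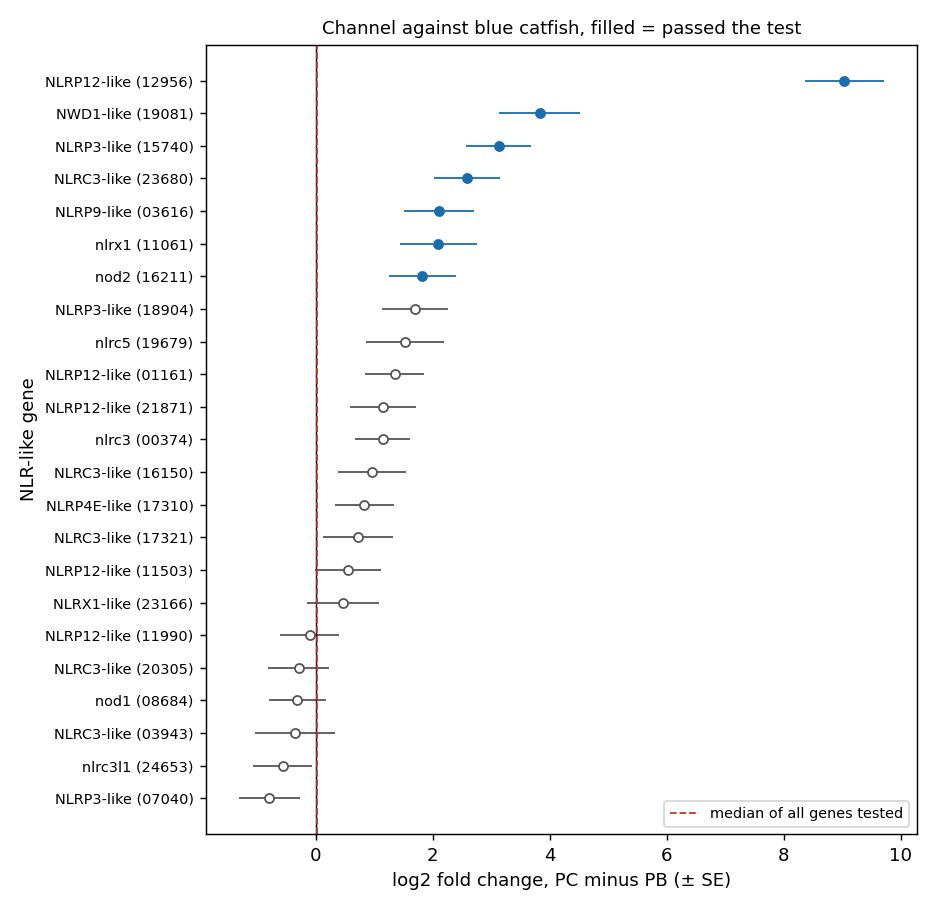
Log2 fold change between PC and PB livers (x axis, PC minus PB on log2(CPM + 0.5)) for each of the 23 NLR-like genes (y axis, with the last 5 digits of the Ensembl identifier); points are limma estimates from 2 livers per type, bars the standard error, filled points passed the test, and the dashed line is the median of all genes tested. The 7 filled points all lie to the right of 0, from 1.82 for nod2 to 9.04 for ENSIPUG00000012956.

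The largest difference was that of ENSIPUG00000012956. Its values were 1749 and 808 CPM in the PC livers and 2.32 and 1.32 CPM in the PB livers, so the lower PC liver was 349 times the higher PB liver. The type means were 1279 ± 665 CPM in PC and 1.82 ± 0.71 CPM in PB (mean ± SD, n = 2). Limma gave a log2 fold change of 9.04 (standard error 0.68, adjusted p = 2.517e-05), which ranked 1 of 13420 genes from the highest. In PC the gene was the 113th most abundant of 13444 genes by CPM and the 357th per kilobase, while in PB it ranked 11301 by CPM. It passed with each of the 8 livers left out in turn, with a log2 fold change between 8.48 and 9.60. The gene was low in both PB livers but detected in each.

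The other NLRP-like genes that passed were a 3-like and a 9-like gene. ENSIPUG00000015740, NLRP3-like, had 55.3 and 33.9 CPM in PC and 2.94 and 6.83 CPM in PB, with a log2 fold change of 3.12 (standard error 0.56, adjusted p = 0.003239 from limma). The groups did not overlap, and the gene passed with each liver left out. ENSIPUG00000003616, NLRP9-like, had 3.30 and 1.67 CPM in PC and 0.28 and 0.08 CPM in PB, with a log2 fold change of 2.104 (standard error 0.60, adjusted p = 0.0313 from limma). At such low levels the pseudocount makes up much of the PB value, and the call was lost without PC replicate 1 (adjusted p = 0.160 from limma), PB replicate 1 (0.0660) or PB replicate 2 (0.138).

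Of the 7 nlrc3 and NLRC3-like genes, 1 passed. ENSIPUG00000023680 had 39.3 and 13.0 CPM in PC and 3.83 and 2.94 CPM in PB. The groups did not overlap, although the PC livers differed by a factor of 3.02. The difference was 2.59 on the log2 scale (standard error 0.57, adjusted p = 0.0102 from limma), and the call was lost without PC replicate 1 (log2 fold change 1.81, adjusted p = 0.0724 from limma) or PB replicate 2 (2.42, adjusted p = 0.0702). The gene with the symbol nlrc3 had 4.004 and 5.62 CPM in PC and 1.95 and 1.81 CPM in PB, which did not overlap, but did not pass (adjusted p = 0.117 from limma). The NLRC3-like gene nlrc3l1, with 6.27 and 11.6 CPM in PC against 9.65 and 17.2 CPM in PB, overlapped between the species.

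The NWD1-like gene si:ch211-212k18.6 (ENSIPUG00000019081) had 17.9 and 3.60 CPM in PC and 0.24 and 0.0039 CPM in PB. On the log2 scale PC was higher by 3.83 (standard error 0.69, limma, adjusted p = 0.003536). The PC livers lay far apart, yet the lower of them was still well above both PB livers. The gene passed with each liver left out, and without PC replicate 1 the log2 fold change was 2.74.

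Among the members with mammalian counterparts of known role, nod2 and nlrx1 passed narrowly. For nod2 (ENSIPUG00000016211) the values were 7.90 and 3.30 CPM in PC and 1.30 and 0.92 CPM in PB, with a log2 fold change of 1.82 (standard error 0.57, adjusted p = 0.0476 from limma). For nlrx1 (ENSIPUG00000011061) they were 78.8 and 14.3 CPM in PC and 5.75 and 9.74 CPM in PB, with a log2 fold change of 2.096 (standard error 0.66, adjusted p = 0.0473 from limma). Neither gene overlapped between the species, but PC replicate 1 of nlrx1 was 5.53 times PC replicate 2. Both calls held only without PC replicate 2 among the fits with 1 liver left out, and both were lost with a pseudocount of 0.1 (adjusted p = 0.0520 for nlrx1 and 0.0966 for nod2 from limma) and in the fit of PC and PB alone (0.0814 and 0.0999). The nod2 call was also lost with a filter at 5 CPM (adjusted p = 0.0948 from limma) and with median-of-ratios scaling (0.0528). Without PC replicate 1, nlrx1 fell to a log2 fold change of 0.88 (adjusted p = 0.338 from limma) and nod2 to 1.25 (adjusted p = 0.261). Without either PB liver the adjusted p from limma was 0.202 and 0.107 for nlrx1 and 0.0944 and 0.177 for nod2, and without any of the 4 hybrid livers it lay between 0.0615 and 0.0789 for both.

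**Figure D2:**
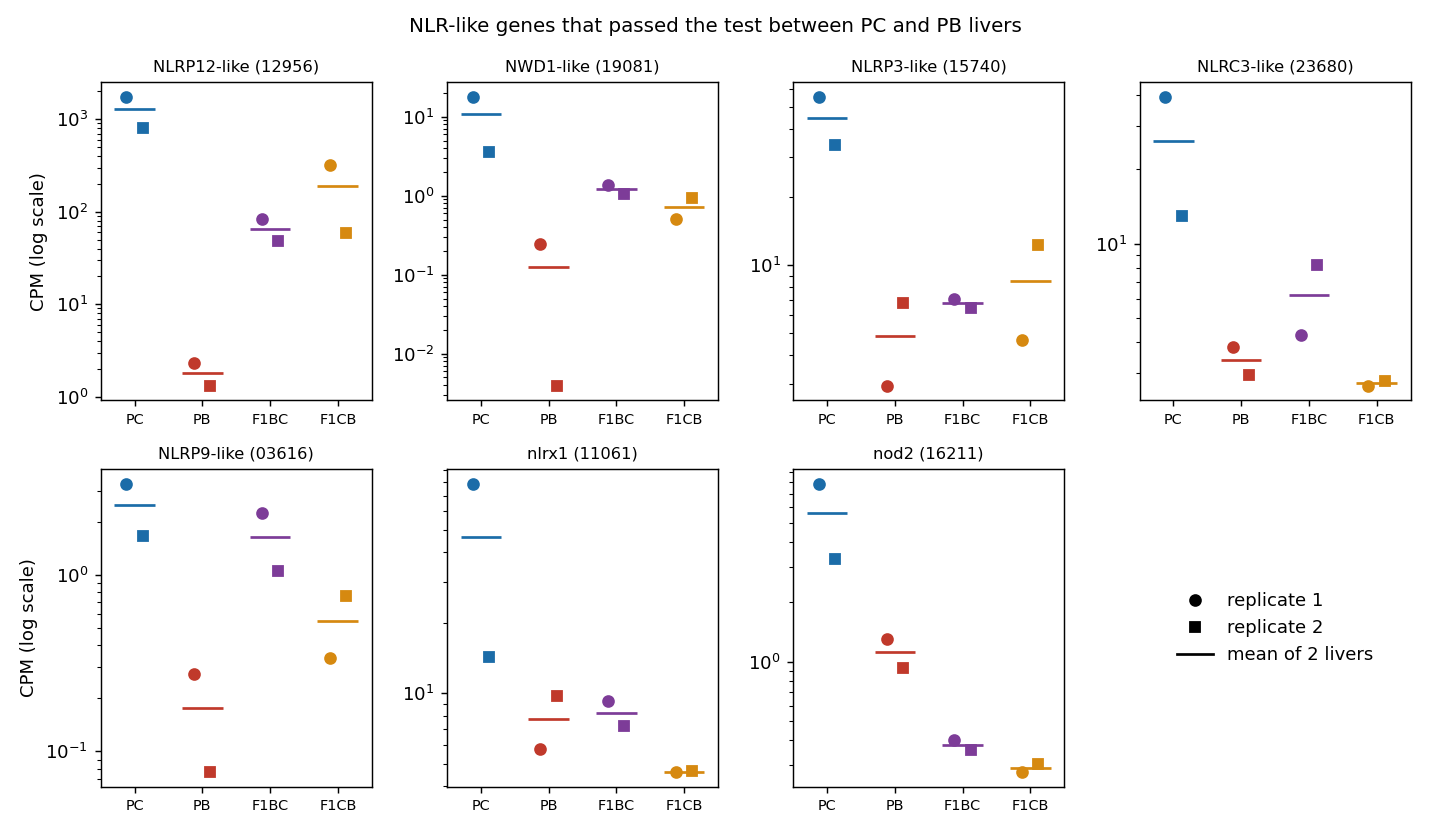
CPM on a log scale (y axis) in the 8 livers by genetic type (x axis) for the 7 NLR-like genes that passed the test between PC and PB; circles and squares are replicates 1 and 2, lines the mean of 2 livers, and the y axis differs between panels. Both PC livers sit above both PB livers in every panel, and ENSIPUG00000012956 spans from 1.32 CPM in PB to 1749 CPM in PC with the hybrids between.

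The members that did not pass included the next in order, ENSIPUG00000018904, an NLRP3-like gene with 9.97 and 5.85 CPM in PC and 2.26 and 1.81 CPM in PB (log2 fold change 1.69, adjusted p = 0.0576 from limma). The regulator of MHC class I genes, nlrc5 (ENSIPUG00000019679), had 48.8 and 12.001 CPM in PC and 4.61 and 14.0 CPM in PB. Its groups overlapped, since PC replicate 2 lay below PB replicate 2 (adjusted p = 0.135 from limma). The most abundant NLRP12-like gene after the leading one, ENSIPUG00000001161, had 122 and 46.9 CPM in PC against 35.3 and 24.3 CPM in PB, which did not overlap (log2 fold change 1.35, adjusted p = 0.0841 from limma). The NLRC3-like gene si:dkeyp-80d11.12 had 3.81 and 1.41 CPM in PC against 1.49 and 6.33 CPM in PB, which did. The peptidoglycan sensor nod1 (ENSIPUG00000008684) had 6.36 and 7.59 CPM in PC and 6.4004 and 11.9 CPM in PB, so the species overlapped (by limma, -0.32 ± 0.49 SE on the log2 scale, adjusted p = 0.693). The single member with both PC livers below both PB livers was ENSIPUG00000020305, an NLRC3-like gene, with 2.94 and 3.11 CPM in PC and 3.74 and 3.90 CPM in PB (log2 fold change -0.29, adjusted p = 0.735 from limma).

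Within PC the 2 livers were not alike. PC replicate 1 was higher than replicate 2 in 17 of the 23 members, with a median log2 difference of 0.81, where the median over all genes was 0.00. In F1BC replicate 1 was higher in 22 members, with a median of 0.50 beside 0.18 over all genes. It was higher in 11 members in PB and in 8 in F1CB. In 10 members the PC livers differed more than 2-fold on CPM + 0.5, which was so for 30.6% of all genes. On this scale 6 members of PB (23.8% of all genes), 2 of F1BC (12.2%) and 5 of F1CB (18.0%) differed that much. The added 0.5 narrows the gaps of low genes, so more members of a type can differ 2-fold in CPM itself. The types are therefore not ranked by these counts. Without PC replicate 1, the members' median log2 fold change between PC and PB was 0.67 and 3 members passed, while the genes that passed over the whole fit went from 2122 to 1248. Without PC replicate 2 it was 1.28 and 10 members passed, of 2568 genes. Without PB replicate 1 there were 4 members of 1318 genes and without PB replicate 2 there were 3 of 928 genes, so the members' counts moved along with those of all genes. Between the parents, 4 of 22 white blood cell markers were lower in PC (6.69% of all genes) and 1 (cd79a, of the B cell receptor) higher (9.12%) by the same test. The markers' median log2 fold change was -0.49. The marker sum was 921 CPM in PC replicate 1, the liver with the highest family sum, and 1467 CPM in PC replicate 2. The single marker cd74a gave 430 and 973 CPM of these sums. The part of these cells in the difference between PC and PB, or between the PC livers, was not tested. The PC livers also differed in 8 markers of exocrine pancreas, a tissue that can lie in or beside fish liver, which summed to 249.9 CPM in replicate 1 and 3535 CPM in replicate 2 and in the other 6 livers to between 227 and 3721 CPM. No pancreas marker passed in any of the 7 comparisons, and the part of such tissue in the gap between the PC livers was not tested.

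A member present in 1 parental species only was defined as over 1 CPM in both livers of that species and under 0.25 CPM in both of the other. The NWD1-like gene ENSIPUG00000019081 met this rule for PC, and no member met it for PB. Over all genes listed, 118 (0.878%) met it for PC and 78 (0.580%) for PB. The NWD1-like gene met it narrowly, with 0.244 CPM in PB replicate 1. Just outside was the NLRP9-like gene ENSIPUG00000003616, with 0.276 and 0.076 CPM in PB. A limit of 0.1 CPM left no member and a limit of 1 CPM gave both genes. Both were detected in all 4 hybrid livers. The NWD1-like gene had 1.37 and 1.05 CPM in F1BC and 0.51 and 0.95 CPM in F1CB, above both PB livers and below both PC livers. The NLRP9-like gene had 2.24 and 1.05 CPM in F1BC and 0.34 and 0.76 CPM in F1CB, also above both PB livers.

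Across the 4 types, PC had the highest mean for 15 of the 23 members, beside 42.0% of all genes. PB was highest for 5 (38.6% of all genes), F1CB for 2 (12.7%) and F1BC for 1 (6.68%). PC was the lowest type for no member, where it was for 21.4% of all genes. The lowest mean was in PB for 7 members (22.1%), in F1BC for 7 (34.6%) and in F1CB for 9 (21.9%). In 10 members both PC livers lay above all 6 other livers, which was so for 16.9% of all genes. With median-of-ratios scaling, which divides each library by a factor between 0.813 and 1.19, PC was highest for 15 members (34.6% of all genes) and lowest for 2 (30.0%), and in 10 both PC livers again lay above all other livers (11.7%). These counts by order, and their alternatives, were chosen after seeing the data.

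**Figure D3:**
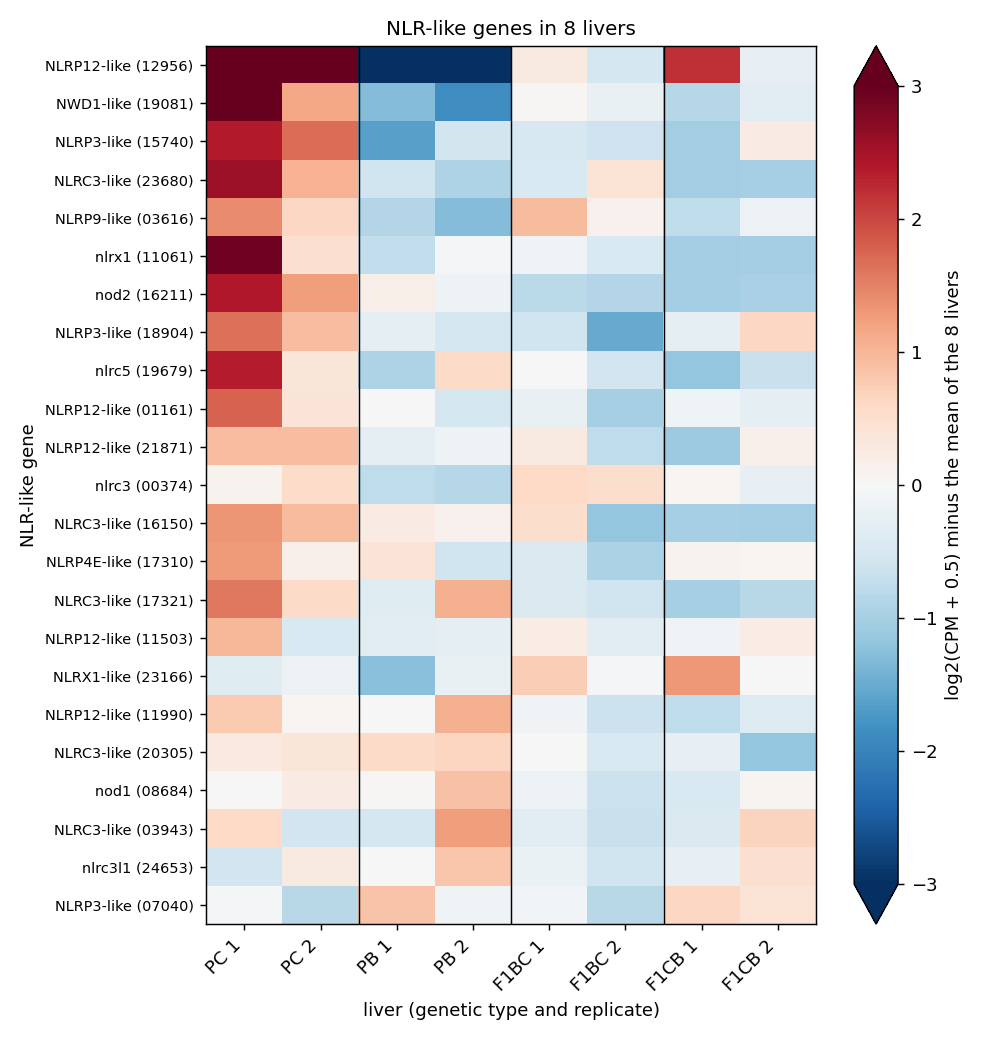
Level of each NLR-like gene (rows, ordered by the PC to PB difference, with the last 5 digits of the Ensembl identifier) in each of the 8 livers (columns), shown as log2(CPM + 0.5) minus the gene's mean over the livers; colours end at 3 and -3. The PC columns are mostly red in the upper rows, PC replicate 1 more than PC replicate 2, and the NLRX1-like gene is the row whose hybrid columns lie above all parental ones.

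The comparisons of PC with the hybrids share their PC livers with the comparison above and are not independent of it. Against F1BC, 1 member passed, ENSIPUG00000012956, where 0.805% of all genes passed in either direction, 0.373% with PC higher and 0.432% with PC lower. Against F1CB, 4 members passed, all higher in PC, where 2.03% of all genes passed in either direction, 0.999% with PC higher and 1.04% with PC lower. The members' median log2 fold change was 1.41 against F1BC and 1.28 against F1CB, beside 0.37 and 0.22 over all genes. Both PC livers were above both F1BC livers in 16 members (39.4% of all genes) and above both F1CB livers in 17 (34.1%). They were below both F1BC livers in 1 (13.2%) and below both F1CB livers in 2 (16.9%). Median-of-ratios scaling moved the medians of all genes to 0.04 and 0.05 and those of the members to 1.04 and 1.08, so the members stood about as far above all genes as before. White blood cell markers moved the same way against F1CB, where 20 of 22 lay above 0 (60.2% of all genes) with a median log2 fold change of 1.02. Of them cd79a (2.65, adjusted p = 0.0170 from limma) and cd74b, of antigen presentation (1.73, adjusted p = 0.0473), passed. Against F1BC 11 of the 22 lay above 0 (67.8% of all genes) and the median was 0.00, or -0.35 after scaling. The part of these cells in the members' difference from F1CB was not tested.

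ENSIPUG00000012956 had intermediate levels in both hybrids. F1BC had 83.7 and 47.7 CPM and F1CB had 318 and 58.5 CPM. The lowest hybrid liver was 20.6 times the highest PB liver, and the lowest PC liver was 2.54 times the highest hybrid liver, so neither parent overlapped with the hybrids. F1BC had a mean of 65.7 ± 25.4 CPM and F1CB of 188 ± 184 CPM (mean ± SD, n = 2), which were 5.14% and 14.7% of the PC mean. All 4 hybrid livers were below the arithmetic mean of the parents, 640.2 CPM, and the mid-parent value on the log2 scale corresponded to 51.4 CPM, which 3 of the 4 exceeded. By limma the log2 fold change of PC over F1BC was 4.22 (standard error 0.68, adjusted p = 0.0166) and that of PC over F1CB was 3.12 (standard error 0.68, adjusted p = 0.0415). Against PB, the gene was the only member that passed in either hybrid, and it was higher in both. Between PB and F1BC, 2.28% of all genes passed, 0.939% with PB higher and 1.34% with F1BC higher. Between PB and F1CB, 1.42% passed, 0.358% with PB higher and 1.07% with F1CB higher. The log2 fold change of PB over F1BC was -4.82 (adjusted p = 0.003275 from limma) and that of PB over F1CB was -5.92 (adjusted p = 0.0008844 from limma).

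Between PB and the hybrids the members went both ways. The median log2 fold change of PB over F1BC was 0.34 and of PB over F1CB 0.24, beside 0.35 and 0.18 over all genes. Taken without sign, the members' medians were 0.81 and 0.64, beside 0.62 and 0.51 over all genes. Both PB livers were above both F1BC livers in 7 members (40.3% of all genes) and below them in 6 (16.0%). Against F1CB the counts were also 7 (29.2%) and 6 (17.0%).

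The call of ENSIPUG00000012956 between PB and F1CB held with each liver left out, and that between PB and F1BC was lost only without PB replicate 2 (log2 fold change -4.50, adjusted p = 0.0630 from limma). The call between PC and F1BC was lost without PC replicate 1 (3.67, adjusted p = 0.0865 from limma) and without F1BC replicate 2 (3.82, adjusted p = 0.145). That between PC and F1CB was lost without PC replicate 1 (2.56, adjusted p = 0.188 from limma), F1CB replicate 2 (1.90, 0.269), PB replicate 1 (3.12, 0.0597) or PB replicate 2 (3.12, 0.0592), and with median-of-ratios scaling (2.92, 0.0601).

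The other 3 members that passed between PC and F1CB were ENSIPUG00000023680, nod2 and ENSIPUG00000015740. The NLRC3-like gene ENSIPUG00000023680 had 2.66 and 2.79 CPM in F1CB, below both PB livers, and 4.28 and 8.17 CPM in F1BC (log2 fold change of PC over F1CB 2.85, adjusted p = 0.0290 from limma). For nod2 both F1CB livers, at 0.28 and 0.31 CPM, and both F1BC livers, at 0.40 and 0.36 CPM, were below both PB livers (log2 fold change of PC over F1CB 2.84, adjusted p = 0.0305 from limma). The NLRP3-like gene ENSIPUG00000015740 had 4.68 and 12.3 CPM in F1CB and 7.12 and 6.46 CPM in F1BC (log2 fold change of PC over F1CB 2.43, adjusted p = 0.0465 from limma). None of the 4 calls against F1CB held without PC replicate 1 (adjusted p between 0.160 and 0.198 from limma) or without F1CB replicate 2 (between 0.113 and 0.269), and 1 held without F1CB replicate 1. With either F1BC liver or either PB liver left out, 2 of the 4 passed.

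On the log2 scale, both hybrids lay nearer to PB than to PC for 5 of the 7 members that were higher in PC than in PB. Over all 1224 genes higher in PC this was so for 38.5%. The exceptions were ENSIPUG00000012956, for which both hybrids were nearer to PC, and ENSIPUG00000003616, for which F1BC was nearer to PC and F1CB to PB. Placed on a scale from 0 at PB to 1 at PC, F1BC and F1CB were at 0.53 and 0.66 for ENSIPUG00000012956, at 0.17 and 0.22 for ENSIPUG00000015740, at 0.39 and 0.26 for ENSIPUG00000019081, at 0.29 and -0.10 for ENSIPUG00000023680 and at -0.48 and -0.56 for nod2. The members enter this scale through PC and PB values that also chose them, so it is a description.

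The 2 hybrids together were then compared with the mid-parent value. This tests departure from the mean of the parents, and a hybrid that departs from it can still lie between them. No member passed by limma, where 0.0447% of all genes passed, 0.0298% with the hybrids higher and 0.0149% with them lower. The smallest adjusted p of a member was 0.124, for nod2 (log2 difference -1.85, standard error 0.41). The nod2 values of all hybrid livers were under the pseudocount of 0.5, so the size of this difference depends on it. An unadjusted p under 0.05 was found for 12 members, beside 14.1% of all genes. The hybrids were lower than the mid-parent value for 17 members and higher for 6, where they were higher for 30.2% of all genes. The members' median log2 difference was -0.72 and that of all genes -0.25. With median-of-ratios scaling the same counts of 17 and 6 were found, the medians were -0.53 and -0.01, and 5 members had an unadjusted p under 0.05. Markers of blood cells moved the same way. Of the 22 white blood cell markers 19 lay below the mid-parent value, with a median of -0.66 (16 and -0.40 after scaling), and all 6 red blood cell markers did, with a median of -0.65 (-0.39 after scaling), though none of either list passed by limma. Hepatocyte markers moved the other way. Of these, 14 of 15 lay above the mid-parent value, with a median of 0.39 (14 and 0.66 after scaling), and none passed by limma. The part of any of these cells in the members' levels was not tested.

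**Figure D4:**
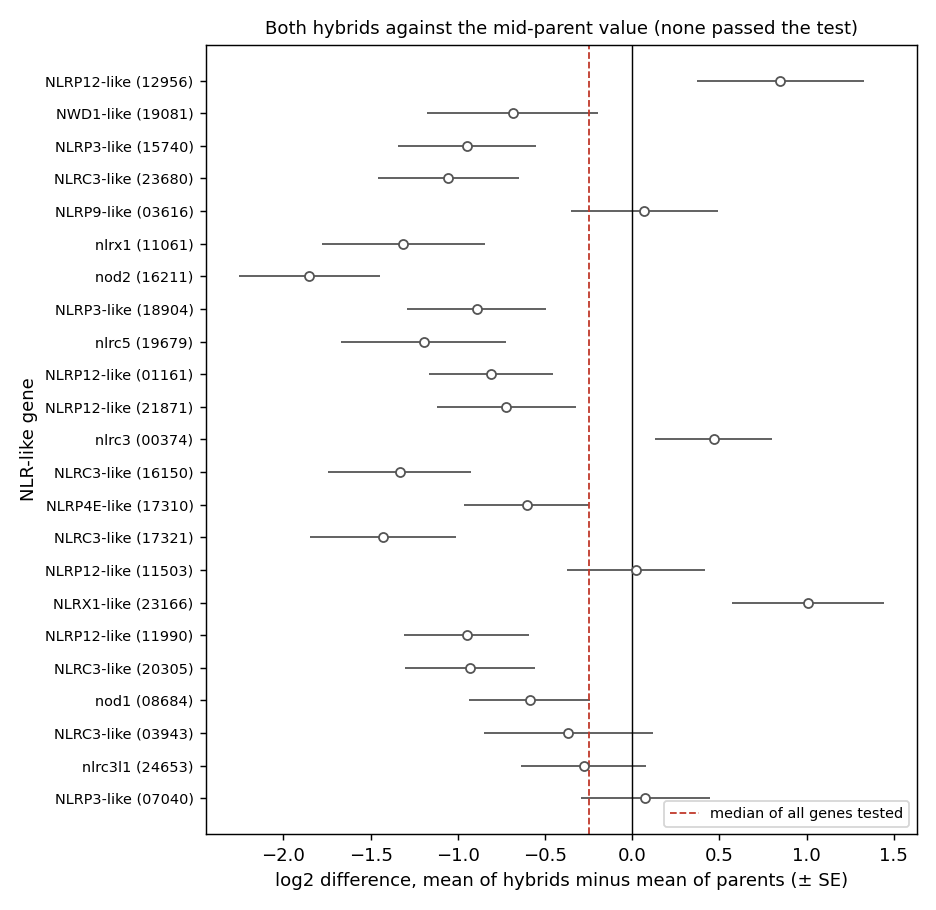
Log2 difference between the mean of both hybrids and the mean of both parents (x axis, on log2(CPM + 0.5)) for each of the 23 NLR-like genes (y axis, with the last 5 digits of the Ensembl identifier); points are limma estimates over 8 livers, bars the standard error, and the dashed line is the median of all genes tested. Of the 23 points 17 lie below 0 and 6 above, where 30.2% of all genes tested lie above. The lowest is nod2 at -1.85 and the highest the NLRX1-like gene at 1.01, and none passed the test.

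The margin in the study's methods was applied to type means, under 0.8 times the lower parent or over 1.2 times the higher parent. By this rule 9 members were low in F1BC (30.1% of all genes), 7 in F1CB (22.2%) and 5 in both (13.0%). More genes met the rule here than the study reported as transgressive, so these are not the study's own calls. The NLRX1-like gene was the member that was high, in F1BC (4.31% of all genes), in F1CB (7.03%) and so in both (1.43%). In 4 members all 4 hybrid livers were below all 4 parental livers, which was so for 4.95% of all genes. These were nod2, the NLRC3-like genes ENSIPUG00000017321 and ENSIPUG00000020305, and the NLRP12-like gene ENSIPUG00000011990. The gene ENSIPUG00000017321 had between 1.11 and 1.86 CPM in the hybrids and between 1.98 and 9.02 CPM in the parents. The gene ENSIPUG00000020305 had between 0.77 and 2.30 CPM in the hybrids and between 2.94 and 3.90 CPM in the parents. After median-of-ratios scaling the separation remained for nod2 and ENSIPUG00000020305, and 2.25% of all genes were so separated.

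The opposite pattern was found in the NLRX1-like gene si:dkey-118k5.3 (ENSIPUG00000023166). It had 3.45 and 1.80 CPM in F1BC and 5.38 and 1.88 CPM in F1CB, against 1.34 and 1.59 CPM in PC and 0.50 and 1.52 CPM in PB. All hybrid livers were thus above all parental livers, as for 0.380% of all genes, but the lower liver of each hybrid was close to the parents and the gene did not pass (log2 difference from mid-parent 1.01, standard error 0.44, adjusted p = 0.333 from limma). Its namesake nlrx1 lay on the other side of the mid-parent value (log2 difference -1.31, adjusted p = 0.265 from limma), with 4.58 and 4.66 CPM in F1CB and 9.23 and 7.21 CPM in F1BC.

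The reciprocal hybrids share both parental species and differ in which was the mother. Between F1CB and F1BC no member passed by limma (0.149% of all genes did, 0.0671% higher and 0.0820% lower in F1CB), none had an unadjusted p under 0.05 (8.08% of all genes), and the smallest adjusted p was 0.617. The largest log2 difference was 1.22 (standard error 0.56), for the NLRP3-like gene ENSIPUG00000018904, which had 2.21 and 4.62 CPM in F1CB and 1.69 and 0.67 CPM in F1BC. Both F1CB livers were above both F1BC livers in 3 members (28.7% of all genes) and below them in 8 (17.4%). Of the 22 white blood cell markers 21 lay below 0 in F1CB minus F1BC, where 60.1% of all genes lay above 0, though no marker passed. Their median was -1.12 on the log2 scale, where the median of the NLR-like genes was -0.15 and that of all genes 0.15. The part of those cells in the family's levels was not tested.

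A list of genes linked to NLR function, called partners here, was also examined. It holds genes for proteins that NLRs signal with and also genes of MHC presentation, such as tap1. Some symbols have more than 1 entry. Of 58 partner genes tested, 4 were higher in PC (9.12% of all genes) and 1 was higher in PB (6.69%) by the same test. Their median log2 fold change was 0.04, beside 0.02 over all genes. The gene relb, an NF-kB subunit, had 17.8 and 11.2 CPM in PC and 2.54 and 3.01 CPM in PB (log2 fold change 2.16, adjusted p = 0.007941 from limma). The gene tab1, whose product binds the kinase TAK1 downstream of several innate receptors, had 37.7 and 27.4 CPM in PC and 7.94 and 7.73 CPM in PB (1.97, adjusted p = 0.0104 from limma). The partner higher in PB was tab2, at 3.71 and 3.12 CPM against 0.08 and 0.91 CPM in PC (-2.10, adjusted p = 0.0268 from limma). The kinase gene mapk9 and tap1, a peptide transporter of MHC class I loading, were the others higher in PC, with log2 fold changes of 1.84 and 1.61 (adjusted p = 0.0416 and 0.0436 from limma). In the hybrids relb had 13.4 and 11.97 CPM in F1BC and 5.77 and 6.61 CPM in F1CB. It was the partner that passed between PB and F1BC (log2 fold change -2.01, adjusted p = 0.0402 from limma), where 1.34% of all genes passed with F1BC higher.

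The partner nearest to the NOD proteins, the kinase gene ripk2, had 53.3 and 24.5 CPM in PC and 22.3 and 35.5 CPM in PB, which overlapped. In the hybrids it had 15.0 and 14.7 CPM in F1BC and 9.16 and 17.5 CPM in F1CB, below all 4 parental livers. This order was found for 4.95% of all genes and for some other partners too. No partner passed in the hybrids against the mid-parent value. There 47 of the 58 lay below 0 and 11 above, where 30.2% of all genes lay above. The median log2 difference was -0.47 beside -0.25 over all genes. With median-of-ratios scaling 39 lay below 0 and these medians were -0.22 and -0.01. Between PC and F1CB card9, an adaptor of innate signalling, and tap1 were higher in PC, with log2 fold changes of 2.76 and 2.17 (adjusted p = 0.0315 and 0.0465 from limma). In this direction 0.999% of all genes passed. Of 8 genes for other sensors of microbes, Toll-like receptors and RNA sensors of the RIG-I type, none passed in any of the 7 comparisons by limma. All 8 lay below the mid-parent value in the hybrids, with a median log2 difference of -0.89, and of -0.65 with median-of-ratios scaling. The RNA sensor gene ifih1 had 16.9 and 18.2 CPM in PC, but 7.14 and 14.1 CPM in PB, 4.84 and 4.72 CPM in F1BC and 7.78 and 5.01 CPM in F1CB.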

How the data were processed

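Polyadenylated RNA of 8 livers was sequenced as paired ends. The authors trimmed reads with Trimmomatic, aligned them to the genome of channel catfish with TopHat2 and counted reads per gene model with bedtools (versions 2.1.1 and 2.29.0 per the submitters' processing notes). The genome build, and whether counting used strand, are not given in the sources used here. The deposited values, called RPKM, behave as CPM: the log2 of their mean differs from the authors' deposited average log2 CPM by a median of -0.0089, and by -1.68 after division by length. They are not whole reads, and depth is unknown. Lowest values were a repeated near-zero number or, in 3 hybrid livers, exact 0 for up to 36 genes, none a member. The table lists only genes over 1 CPM in some liver. Transcript lengths, in bases as deposited, served only for levels per kilobase.

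Genes whose mean passed 1 CPM in some type, 13420 in all, were fitted with limma 3.58.1 in R 4.3.3 with an intensity trend on log2(CPM + 0.5), a scale that understates changes of low genes. P-values rest on 1 spread per gene, pooled over the 2 livers of every type and moderated towards genes of like level. The p-value of a comparison therefore also depends on livers of types outside it. Exact tests of 2 against 2 livers could not pass and were not used. Alternatives were pseudocounts of 0.1 and 1, no filter or 5 CPM, median-of-ratios scaling, fits of the compared types alone, the replicate number as a block and each liver left out. The genes and lists were chosen with earlier results of these data known. Genes named were those with a symbol, those passing in a comparison, those in 1 species only and the 5 most abundant per kilobase, and ENSIPUG00000018904, ENSIPUG00000017321, ENSIPUG00000020305, ENSIPUG00000011990, ENSIPUG00000007040, ripk2 and ifih1 were added after their values were seen. Protein identity between members was not used.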

Additional observations from a re-analysis of the deposited data

Results flagged for a closer look

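In a pair of members the reciprocal hybrids lay on opposite sides of the mid-parent value in every liver. For the NLRP9-like gene ENSIPUG00000003616 both F1BC livers were above it, by 0.98 and 0.16 on the log2 scale, and both F1CB livers below it, at -0.73 and -0.14, with a log2 difference of F1CB minus F1BC of -1.01. For the NLRP3-like gene ENSIPUG00000007040 both F1BC livers were below it, at -0.04 and -0.78, and both F1CB livers above it, by 0.66 and 0.45, with a log2 difference of 0.97. Tested between the hybrids, neither passed (adjusted p = 0.719 and 0.686 from limma), and some of these livers lay close to the mid-parent value. With median-of-ratios scaling F1BC replicate 1 of ENSIPUG00000007040, at 7.41 CPM, lay above the mid-parent value, so its pattern was lost. The share of all genes with such a pattern was not counted, so the pair is a description only. With 2 livers per type, single livers were not tested as outliers.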

How the results depend on the processing

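The count of members that passed between PC and PB, 7 (of 2122 genes that passed), was 4 (of 1361) in the fit of those types alone and between 3 (of 928 without PB replicate 2, of 1248 without PC replicate 1) and 10 (of 2568 without PC replicate 2) with single livers left out. For PC and F1BC, 1 (of 108 genes) became 3 (of 123) with a pseudocount of 1 and ranged from 0 (of 53 without PC replicate 1, of 18 without F1BC replicate 2) to 7 (of 399 without PC replicate 2) with single livers left out. For PC and F1CB, 4 (of 273) became 0 (of 96) in the fit of those types alone and ranged from 0 (of 90 without PC replicate 1, of 29 without F1CB replicate 2) to 9 (of 1104 without PC replicate 2), with 1 (of 50) without F1CB replicate 1 and 2 (of 163 to 220 genes) without any single PB or F1BC liver. It ranged from 0 (of 63 genes, without PB replicate 2) to 1 (of 306 in the fit of all livers) for PB and F1BC and from 0 to 1 for the hybrids against the mid-parent value, where nlrx1 passed, of 56 genes, without PC replicate 2 (log2 difference -1.92, adjusted p = 0.0436 from limma). It stayed at 1 for PB and F1CB and at 0 between the hybrids. Members in 1 species only, 1 of 196 genes, numbered 0 (of 105) and 2 (of 817) with absence limits of 0.1 and 1 CPM and from 1 to 2 (of 342, without PB replicate 1) with livers left out. With livers left out, PC was highest for 15 to 17 members (38.5% to 45.6% of all genes) and lowest for 0 to 3 (19.8% to 29.5%; 2 and 30.0% with median-of-ratios scaling). All PC livers were above every other liver in 10 to 15 (17.7% to 31.5%) and above all PB livers in 12 to 16 (29.5% to 42.8%). All hybrid livers were below all parental livers in 4 to 6 members (6.13% to 10.4%; 2 and 2.25% with median-of-ratios scaling) and above them in 1 (0.611% to 1.38%). Every difference of a member that passed kept its direction in all alternatives run. The cause of these shifts was not tested. Fits that leave livers or types out also hold fewer livers, and the part of this in the shifts was not tested either. Deviations from the type means, for livers with the same replicate number, were weakly correlated between types (from -0.01 to 0.14). Whether the replicate numbers mark anything that livers share was not tested. With the replicate block, 8 members (of 2419 genes) passed between PC and PB, 4 (of 322) between PC and F1BC and 7 (of 711) between PC and F1CB, and the other members' counts did not move. Scaling changed the split of all genes that passed from 50 higher and 58 lower in PC to 32 and 93 against F1BC, from 134 and 139 to 89 and 197 against F1CB, and from 126 higher and 180 lower in PB to 83 and 283 against F1BC.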
